A study of Mus musculus with 18 samples.

Results

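The genes described here are 9 mouse genes whose proteins recognise stalled or collided ribosomes or phosphorylate the initiation factor eIF2, chosen by symbol and matched to the gene identifiers of the count table: *Gcn1*, *Eif2ak4*, *Map3k20*, *Edf1*, *Rack1*, *Gtpbp1*, *Gtpbp2*, *Eif2ak1* and *Eif2ak3*. They are 9 of 55414 genes in the table, and 8 of the 9 had enough reads to be tested, among 19003 tested genes. RNA-seq was done on N2A cells, a mouse neuroblastoma cell line, 72 h after siRNA treatment. The 6 groups were Scramble siRNA A, Scramble siRNA B, Fmr1 siRNA A, Fmr1 siRNA B, Zfp598 siRNA A and Zfp598 siRNA B, with 3 libraries each, and every group had been transfected, so the series holds no untreated cells. Scramble siRNAs are the non-targeting controls, *Fmr1* encodes the RNA-binding protein FMRP, and *Zfp598* encodes the ubiquitin ligase that marks collided ribosomes. A knockdown (KD) condition pools both siRNAs of a target, for 6 libraries. The comparisons ask whether depletion of either protein changed the mRNA levels of the cell's other collision sensors, and whether the independent siRNAs to the same target gave the same change.

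When a ribosome stalls and the next one runs into it, the joined pair is recognised by several proteins at once. ZFP598 with RACK1 and EDF1 leads to ubiquitination of the small subunit and to decay of the mRNA, GCN1 activates the kinase GCN2 (*Eif2ak4*), and the kinase ZAK (*Map3k20*) starts JNK and p38 signalling. GCN2, HRI (*Eif2ak1*), PERK (*Eif2ak3*) and PKR (*Eif2ak2*) each phosphorylate eIF2, which lowers initiation and, through ATF4, turns on the genes of the integrated stress response (ISR). GTPBP1 and GTPBP2 are related GTPases that act on stalled ribosomes. Loss of GTPBP2 in mice that also lack a neuronal arginine tRNA is known to cause neurodegeneration.

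*Gtpbp2* was the member on which most results turned, so the 250 bases before its transcription start are given here with those of an ATF4 target and an endoplasmic reticulum stress target from the pathway lists. The sequences are those of the GRCm39 genome, upstream of the start of the Ensembl canonical transcript in GENCODE M39, and are written 5′ to 3′ on the gene's strand in lower case. Capitals in *Ddit3* mark a match to the composite C/EBP-ATF element (letters TGATGNAA, both strands), 199 bases before the start. Capitals in *Dnajc3* mark a match to the endoplasmic reticulum stress element (CCAAT, 9 bases, CCACG, both strands), 106 bases before the start. *Gtpbp2* holds neither and has no capitals.
Gtpbp2 (chr17:46471708-46471957, + strand): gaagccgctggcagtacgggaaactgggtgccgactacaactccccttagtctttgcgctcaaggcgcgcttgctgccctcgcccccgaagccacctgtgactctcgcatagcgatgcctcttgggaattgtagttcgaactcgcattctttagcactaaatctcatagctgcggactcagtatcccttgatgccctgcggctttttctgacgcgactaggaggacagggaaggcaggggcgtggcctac
Ddit3 (chr10:127126310-127126559, + strand): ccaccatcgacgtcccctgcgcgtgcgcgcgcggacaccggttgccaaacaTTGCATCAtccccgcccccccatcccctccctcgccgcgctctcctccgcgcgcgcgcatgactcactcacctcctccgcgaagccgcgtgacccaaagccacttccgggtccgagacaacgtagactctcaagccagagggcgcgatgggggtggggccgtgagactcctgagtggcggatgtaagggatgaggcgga
Dnajc3 (chr14:119175095-119175344, + strand): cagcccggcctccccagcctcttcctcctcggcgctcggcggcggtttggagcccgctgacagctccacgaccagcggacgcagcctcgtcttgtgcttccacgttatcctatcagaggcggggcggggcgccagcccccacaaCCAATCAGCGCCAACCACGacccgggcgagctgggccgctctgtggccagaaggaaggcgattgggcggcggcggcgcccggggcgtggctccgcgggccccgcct
The window searched ran from 250 bases before to 50 after the start, 300 in all. The composite element was in 836 of 21757 such windows of protein-coding genes (3.84%), in 0 of the 9 members and in 5 of 15 ISR output genes, and the stress element was in 27 windows (0.12%) and in 0 members. A match is a description of letters, and its absence says only that these letters are not in the window. The *Gtpbp2* window had 60.7% G and C and 22 CG dinucleotides.

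The libraries had total counts of 7674724 to 15414590. In 4 of them 1 feature, absent from the annotation used here, took over 8% of the counts, 11.1% in Scramble siRNA A replicate 1, 8.83% in Scramble siRNA A replicate 3, 15.2% in Zfp598 siRNA A replicate 2 and 25.8% in Zfp598 siRNA A replicate 3, against 5.00% to 7.93% in the other 14. Fmr1 siRNA B replicate 1 also stood apart. Its 4 listed Y-linked genes summed to 11.5 CPM (counts divided by the TMM-scaled library size in units of 1e6), against at most 0.149 in the other 17 libraries, and 8 of the 11 pluripotent stem cell markers in the table were higher in it than in any other library. Their sum, 180.0 CPM, lay within the 79.15 to 196.8 CPM of the other 17. N2A identity was otherwise seen in all libraries. The 18 neuronal and neuroblastoma markers summed to 2256 CPM in that library and to 2002 to 3151 in the others, while 8 fibroblast, 8 macrophage and 8 glial markers summed to at most 19.1, 4.37 and 34.0 CPM. In such bulk samples, fewer cells of a kind and less RNA per cell cannot be told apart. The targets were depleted: *Fmr1* was 60.0 ± 6.41 CPM in Scramble KD and 22.3 ± 5.10 in *Fmr1* KD (SD, n = 6 each), and *Zfp598* was 117.8 ± 9.501 CPM in Scramble KD and 41.0 ± 5.36 in *Zfp598* KD (SD, n = 6 each).

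In the comparisons that pooled both siRNAs, edgeR as designed called at most 1 of the 8 tested members. A gene is said to have risen, fallen or passed when its adjusted p in edgeR's quasi-likelihood test was under 0.05 over all tested genes. In *Fmr1* KD against Scramble KD, 1 of 8 tested members passed, *Gtpbp2*, which fell, beside 6.05% of all tested genes. DESeq2 also called *Gtpbp1* (adjusted p = 0.0360) and *Eif2ak3* (adjusted p = 0.0425) in *Fmr1* KD. In *Zfp598* KD, 0 members passed in edgeR, beside 1.80% of all genes, and DESeq2 called 1 member. An unadjusted edgeR p under 0.05 was found for 4 of 8 members in each KD. Over all 19003 tested genes, 4005 had one in *Fmr1* KD and 3355 in *Zfp598* KD. The median log2 fold change of the 8 members was -0.19 for *Fmr1* and 0.09 for *Zfp598*, and over all genes it was 0.01 in both.

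Set against the Scramble siRNA of its own letter, a KD siRNA called 1 to 4 members. The letters name independent siRNAs, and the labels do not pair a KD siRNA with a Scramble siRNA. Pairing by letter is thus an arbitrary choice. Fmr1 siRNA A raised *Eif2ak1* alone (1 of 8, all genes 22.0%). Fmr1 siRNA B lowered *Gtpbp2*, *Gtpbp1* and *Eif2ak3* (3 of 8, all genes 21.4%). Zfp598 siRNA A lowered *Edf1* (1 of 8, all genes 11.0%). Zfp598 siRNA B raised *Gcn1* and *Eif2ak1* and lowered *Gtpbp2* and *Eif2ak4* (4 of 8, all genes 25.2%). A member called with 1 siRNA of a target and not the other need not differ between them. *Eif2ak3* gave -0.27 with Fmr1 siRNA A and -0.39 with Fmr1 siRNA B, and the difference of these effects was -0.12 (adjusted p = 0.674). No member passed with a change over 2-fold in any comparison. A same-letter comparison sets 3 libraries of 1 siRNA against 3 of another, and both KD targets share the same Scramble libraries. The p-values measure the spread between libraries within a siRNA group. That spread is estimated over all 18 libraries, so groups not compared also enter it.

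**Figure D1:**
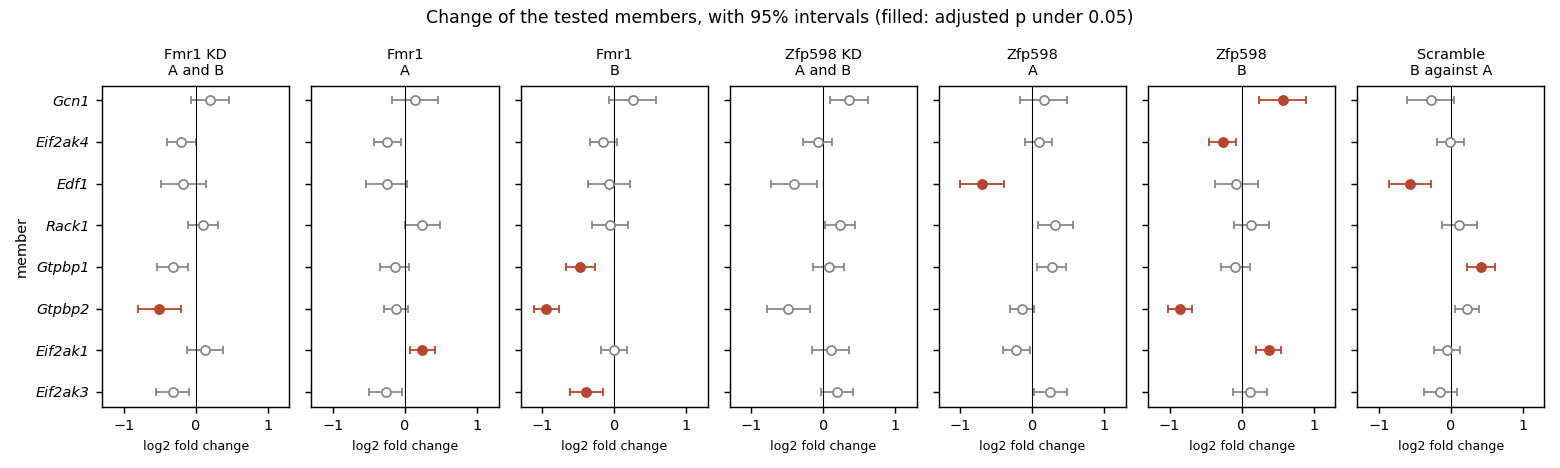
Log2 fold change (x axis) of the 8 tested members (y axis) in the comparisons against Scramble and between the Scramble siRNAs, with 95% intervals and filled points for an adjusted p under 0.05. *Gtpbp2* lies lowest under Fmr1 siRNA B (-0.94) and Zfp598 siRNA B (-0.86), while both A siRNAs leave it near -0.1.

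Members also differed between siRNAs of the same kind. Between the Scramble siRNAs, 2 of 8 members passed, *Gtpbp1* (higher with B) and *Edf1* (lower with B), beside 21.1% of all genes. Between the *Fmr1* siRNAs 2 passed, *Gtpbp2* and *Eif2ak1*, both lower with B (all genes 22.9%), and between the *Zfp598* siRNAs 3 passed, *Eif2ak1* higher and *Gtpbp2* and *Eif2ak4* lower with B (all genes 33.3%). When the KD effects of siRNA B and siRNA A were compared directly as an interaction, *Gtpbp2* passed for *Fmr1* (1 of 8, all genes 20.5%), and *Gtpbp2*, *Edf1* and *Eif2ak1* passed for *Zfp598* (3 of 8, all genes 20.4%). Each KD effect is taken against the Scramble siRNA of its letter, so this test also holds the difference between the Scramble siRNAs. Across the 6 groups as a whole, 7 of 8 members differed, all but *Rack1*, beside 60.5% of all genes.

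Per kilobase of annotated exon, *Rack1* was by far the most abundant member, at 414 ± 50.2 RPKM (CPM per kilobase of exon, SD over 18 libraries), above 99.8% of the 13134 tested protein-coding genes. *Gtpbp2* followed at 40.8 ± 9.61 RPKM, then *Gcn1* at 20.7 ± 3.76 and *Gtpbp1* at 17.5 ± 2.90, which lay within their spread of each other. *Eif2ak3* stood at 10.1 ± 1.94 RPKM. *Eif2ak4* at 4.91 ± 0.549, *Eif2ak1* at 4.38 ± 0.632 and *Edf1* at 4.06 ± 0.918 RPKM did not differ beyond their spread, close to the median of expressed genes. *Edf1* moved most with the choice of length: over its canonical transcript it reached 24.0 ± 5.43 RPKM, above *Eif2ak3* at 14.0 ± 2.70. On that scale *Gcn1*, at 42.0 ± 7.64 RPKM, lay above *Gtpbp1*, at 26.3 ± 4.37, beyond their spread. *Eif2ak4*, at 13.7 ± 1.54 RPKM, lay within the spread of *Eif2ak3*. Of the *Edf1* exon bases, 73.8% lie opposite exons of *Mamdc4*, so reads of the pair may not be separable and the *Edf1* level is uncertain. *Map3k20* averaged 0.00752 RPKM.

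**Figure D2:**
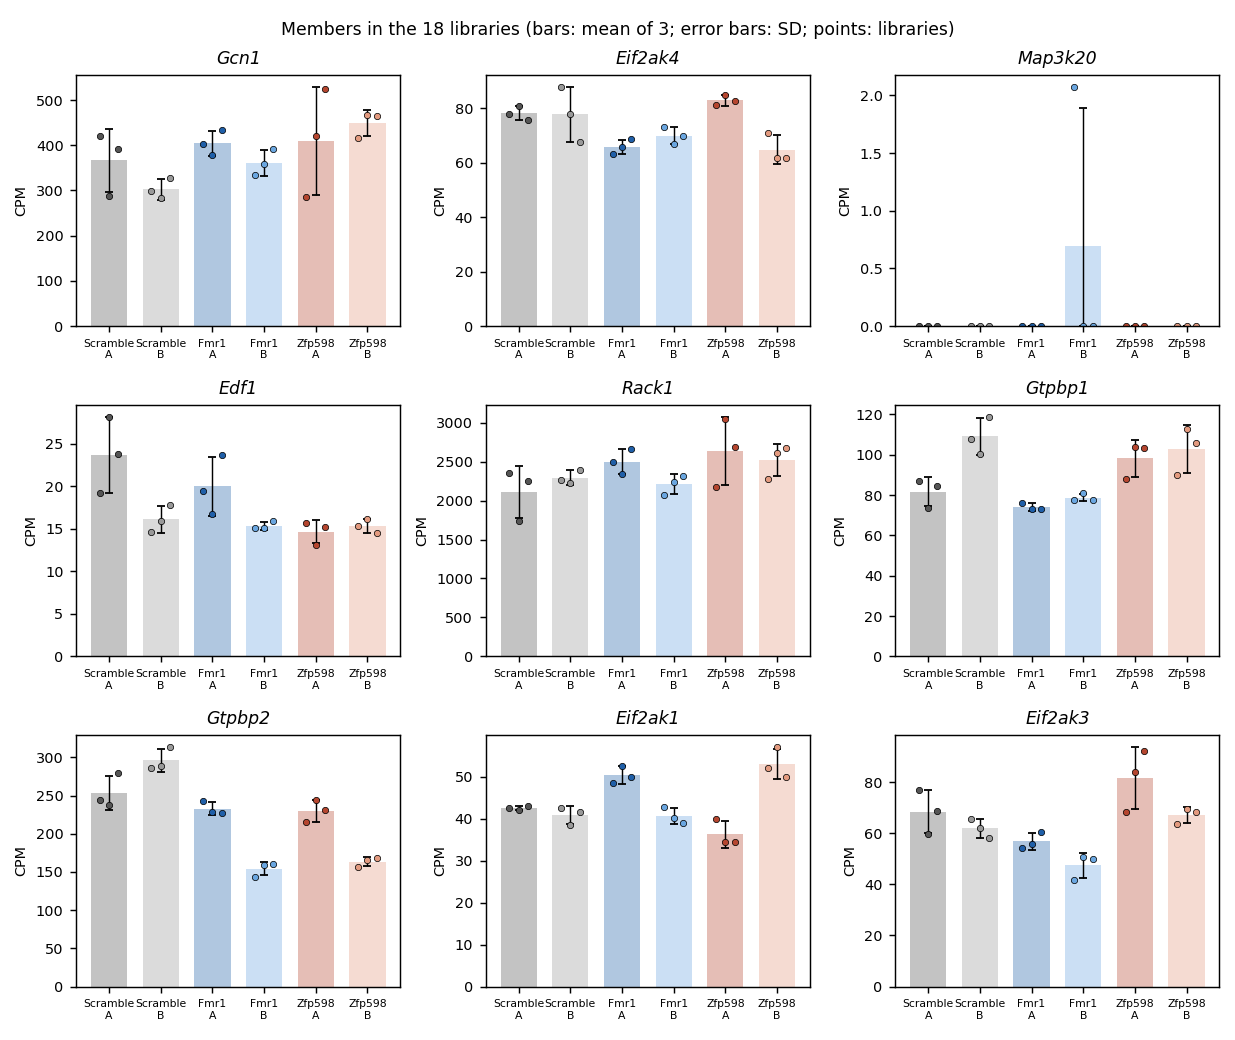
CPM (y axis, from 0, a separate scale per gene) of the 9 members in the 6 siRNA groups (x axis), with points for the 3 libraries, bars for their mean and error bars for the SD. *Gtpbp2* falls from 296.5 CPM in Scramble siRNA B to 154 in Fmr1 siRNA B, and *Map3k20* is at 0 in every library but 1.

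*Gtpbp2* (ENSMUSG00000023952, chr17:46471951-46480296, + strand, 12 exons) encodes a GTPase that binds the rescue factor Pelota, and shares no exon base with another annotated gene. Its level was 243.9, 237.3 and 279.5 CPM in the Scramble siRNA A libraries and 286.5, 289.2 and 313.7 CPM in the Scramble siRNA B libraries. Fmr1 siRNA A gave 242.4, 229.0 and 227.2 CPM, and Fmr1 siRNA B gave 144.0, 159.5 and 159.8 CPM. The 3 Fmr1 siRNA B libraries were thus below all Scramble libraries, and the Fmr1 siRNA A libraries overlapped those of Scramble siRNA A. Zfp598 siRNA A gave 214.8, 244.0 and 231.3 CPM, and Zfp598 siRNA B gave 156.8, 165.1 and 168.2 CPM. The B libraries of both targets therefore formed the low end, with no overlap with the other 4 groups, while the A libraries of both stayed next to the controls.

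With both siRNAs pooled, *Gtpbp2* fell in *Fmr1* KD by a log2 fold change of -0.51 (SE 0.14, adjusted p = 0.0367), a mean of 194 ± 43.7 CPM against 275 ± 29.1 (SD, n = 6 each). The two-sided exact permutation test gave p = 0.00433, and 5 of 6 *Fmr1* KD libraries were below every Scramble library. This test and the pooled fit treat the 6 libraries of a condition as independent, though they come from 2 siRNAs. Their p-values, here and for the other members, do not measure the spread between siRNAs. The adjusted p of 0.0367 rose to between 0.055 and 0.081 without Scramble siRNA A replicate 3, any of the 3 Scramble siRNA B libraries or any of the 3 Fmr1 siRNA B libraries. The pooled call thus rested on each of these 7 libraries. Without Fmr1 siRNA B replicate 1, the library with the Y-linked reads, the log2 fold change was -0.43 (adjusted p = 0.0810). In *Zfp598* KD the value was -0.48 (SE 0.14, adjusted p = 0.0777) with a mean of 197 ± 37.9 CPM (SD, n = 6) and an exact permutation p = 0.00649, which missed the threshold across all genes. It passed in DESeq2 (adjusted p = 0.0330) and in edgeR with the siRNA letter as a block (-0.52, adjusted p = 0.0186), with total counts (adjusted p = 0.0270), and without the 2 or the 4 libraries rich in the unannotated feature (adjusted p = 0.0150 and 0.0214).

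The siRNAs of a target gave changes of different size. Fmr1 siRNA B lowered *Gtpbp2* by a log2 fold change of -0.94 (SE 0.08, adjusted p = 6.61e-08, 0.521-fold), and Fmr1 siRNA A gave -0.12 (SE 0.08, adjusted p = 0.309). Zfp598 siRNA B lowered it by -0.86 (SE 0.08, adjusted p = 2.32e-07, 0.551-fold), and Zfp598 siRNA A gave -0.14 (SE 0.08, adjusted p = 0.287). Set against both Scramble siRNAs instead of Scramble siRNA A, the A siRNAs passed as well, at -0.24 (adjusted p = 0.0152) for *Fmr1* and -0.25 (adjusted p = 0.0190) for *Zfp598*. The difference of the KD effects, B minus A, was -0.82 (SE 0.11, adjusted p = 2.44e-05) for *Fmr1* and -0.72 (SE 0.11, adjusted p = 0.000128) for *Zfp598*. Scramble siRNA B was itself above Scramble siRNA A at 0.23 (SE 0.08, adjusted p = 0.0501) with no overlap of the libraries, and this difference passed in DESeq2 (adjusted p = 0.0132). Compared directly within a target, siRNA B against siRNA A gave -0.59 (adjusted p = 1.52e-05) for *Fmr1* and -0.49 (adjusted p = 0.000118) for *Zfp598*. Without Fmr1 siRNA B replicate 1, the B effect of *Fmr1* was -0.89 (adjusted p = 1.70e-06).

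In the order of the 6 group means, from Scramble siRNA B (296.5 CPM) through Scramble siRNA A (254), Fmr1 siRNA A (233) and Zfp598 siRNA A (230) to Zfp598 siRNA B (163) and Fmr1 siRNA B (154), only the step from Zfp598 siRNA A to Zfp598 siRNA B passed (adjusted p = 0.000118), and it was lost with total counts (-0.23, adjusted p = 0.0660). Among 12110 tested genes with a mean of at least 50 counts, those whose pattern over the 18 libraries was most like that of *Gtpbp2* were *Pla2g12a* (Pearson r = 0.946, Spearman rho = 0.874) and *Got1*, the cytosolic aspartate aminotransferase (r = 0.937, rho = 0.907). These values describe 18 points that share 6 groups and carry no test.

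*Gtpbp1* (ENSMUSG00000042535, chr15:79575046-79605680, + strand), the related GTPase, moved with the *Fmr1* B siRNA too but differed first of all between the controls. Scramble siRNA A gave 86.8, 73.7 and 84.7 CPM, and Scramble siRNA B gave 108.0, 100.6 and 118.9 CPM, a log2 difference of 0.42 (SE 0.10, adjusted p = 0.00344) with no overlap. Fmr1 siRNA A gave 76.2, 73.0 and 73.0 CPM and Fmr1 siRNA B gave 77.8, 81.0 and 77.6 CPM. The 6 *Fmr1* KD libraries thus lay close together at the low end, and the contrast with a Scramble siRNA depended on which Scramble siRNA it was. Fmr1 siRNA B lowered *Gtpbp1* by -0.47 (SE 0.10, adjusted p = 0.00120), or by -0.46 (adjusted p = 0.00697) without Fmr1 siRNA B replicate 1, and Fmr1 siRNA A gave -0.14 (adjusted p = 0.337), with a difference between these effects of -0.33 (adjusted p = 0.0964). Against the mean of both Scramble siRNAs, Fmr1 siRNA A also passed (adjusted p = 0.00360).

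Pooled, *Gtpbp1* was 76.4 ± 3.09 CPM in *Fmr1* KD and 95.4 ± 16.7 in Scramble KD (SD, n = 6 each), a log2 fold change of -0.32 (SE 0.10, adjusted p = 0.0704, exact permutation p = 0.0152). It passed in DESeq2 (adjusted p = 0.0360), with the siRNA letter as a block (adjusted p = 0.0309), without Scramble siRNA A replicate 2 (adjusted p = 0.0270) and without the 4 libraries rich in the unannotated feature (adjusted p = 0.02785). *Zfp598* KD did not move it beyond the spread of the libraries, with 101 ± 9.73 CPM (SD, n = 6) and a log2 fold change of 0.08 (95% interval -0.14 to 0.29, adjusted p = 0.760). Zfp598 siRNA A gave 87.8, 103.9 and 103.3 CPM, all above Scramble siRNA A, and a log2 fold change of 0.265 that missed the threshold (adjusted p = 0.0848) and passed in DESeq2 (adjusted p = 0.0464) and without replicate 1 of that group (adjusted p = 0.0132). The genes nearest in pattern were *Hinfp* (r = 0.930) and *Melk*, a mitotic kinase (r = 0.926).

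*Gcn1* (ENSMUSG00000041638, chr5:115703313-115761272, + strand, 58 exons) encodes the large ribosome-bound scaffold that senses collisions and activates GCN2. It rose with Zfp598 siRNA B, from 297.9, 282.4 and 328.0 CPM in Scramble siRNA B to 415.0, 466.8 and 464.8 CPM, a log2 fold change of 0.57 (SE 0.16, adjusted p = 0.0103) with no overlap. Zfp598 siRNA A gave 285.3, 421.5 and 523.9 CPM, and Scramble siRNA A gave 421.3, 288.8 and 391.3 CPM. In both of these A groups the libraries high in *Gcn1* were those in which the unannotated feature took its largest shares. The part of that feature in the *Gcn1* values was not tested. The log2 fold change with Zfp598 siRNA A was 0.16 (adjusted p = 0.571), and it turned to -0.36 (adjusted p = 0.168) without replicates 2 and 3 of that group and rose to 0.36 (adjusted p = 0.0320) without replicate 1. The Zfp598 siRNA B libraries held 5.40% to 7.92% of that feature.

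Pooled, *Gcn1* was 430 ± 80.8 CPM in *Zfp598* KD, 383 ± 34.5 in *Fmr1* KD and 335 ± 58.2 in Scramble KD (SD, n = 6 each). The log2 fold change in *Zfp598* KD was 0.36 (SE 0.13, adjusted p = 0.1425, exact permutation p = 0.052), and it passed without Zfp598 siRNA A replicate 1 (adjusted p = 0.0252) or without the 4 libraries rich in the unannotated feature (adjusted p = 0.0484). In *Fmr1* KD it was 0.19 (SE 0.13, adjusted p = 0.412, exact permutation p = 0.0996). Fmr1 siRNA B gave 335.1, 357.7 and 391.1 CPM, all above Scramble siRNA B, at a log2 fold change of 0.255 that missed the threshold (adjusted p = 0.270) and passed when only the groups compared were fitted (adjusted p = 0.0173) or without the 4 libraries rich in the unannotated feature (adjusted p = 0.0118). *Rmnd5b*, a subunit of a ubiquitin ligase complex, and *Wdr4*, a tRNA methylation cofactor, were nearest to it in pattern (r = 0.967 and 0.948).

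*Eif2ak4* (ENSMUSG00000005102, chr2:118218950-118305868, + strand, 39 exons) encodes GCN2, the kinase that GCN1 activates. It fell with Zfp598 siRNA B, to 70.8, 61.8 and 61.7 CPM from 87.9, 77.7 and 67.6 in Scramble siRNA B, a log2 fold change of -0.26 (SE 0.09, adjusted p = 0.0375), with 1 library of each group inside the range of the other. *Gcn1* and *Eif2ak4* thus passed in opposite directions under this siRNA. The *Eif2ak4* call was lost without Scramble siRNA B replicate 1 or 2 or Zfp598 siRNA B replicate 2 or 3 (adjusted p from 0.0856 to 0.237), with total counts (adjusted p = 0.1805) and with no filter (adjusted p = 0.104). Zfp598 siRNA A gave 81.1, 84.9 and 82.6 CPM, a log2 fold change of 0.08 (adjusted p = 0.610), and siRNA B against siRNA A gave -0.36 (adjusted p = 0.00548) with no overlap. That value was -0.32 (adjusted p = 0.0840) without the 2 Zfp598 siRNA A libraries rich in the unannotated feature and -0.10 (adjusted p = 0.557) with total counts in place of TMM scaling. The difference of the KD effects was -0.35 (adjusted p = 0.0609).

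In *Fmr1* KD *Eif2ak4* was 67.9 ± 3.35 CPM against 78.0 ± 6.65 in Scramble KD (SD, n = 6 each), a log2 fold change of -0.20 (SE 0.09, adjusted p = 0.231), with an exact permutation p = 0.00866 for this gene alone. The 3 Fmr1 siRNA A libraries, at 63.3, 65.8 and 68.5 CPM, were below all of Scramble siRNA A, at a log2 fold change of -0.25 that missed the threshold (adjusted p = 0.0562). It passed in 8 other settings, among them DESeq2 (adjusted p = 0.0385), both Scramble siRNAs as control (adjusted p = 0.0255) and only the groups compared (adjusted p = 0.0430). *Eif2ak4* shares 3.38% of its exon bases with *Srp14* on the opposite strand. Its nearest genes in pattern were *Bfar* (r = 0.877) and *Fam114a2* (r = 0.873).

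*Map3k20* (ENSMUSG00000004085, chr2:72115981-72272954, + strand, 20 exons), which encodes the ribotoxic stress kinase ZAK, was not detected in 17 of the 18 libraries. Each had 0 counts, which allows a level of up to 0.191 to 0.530 CPM per library (3 counts), or 0.0135 CPM over the 221949818 counts of the 17 together. Fmr1 siRNA B replicate 1 had 31 counts, or 2.08 CPM, or 2.31 CPM on unscaled totals (exact 95% binomial interval 1.57 to 3.28). These limits cover counting error only. The other 2 libraries of that siRNA had 0.

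The 11 stem cell markers together summed to 180.0 CPM in Fmr1 siRNA B replicate 1, within the 79.15 to 196.8 CPM of the other 17 libraries. That library was also the one with the Y-linked reads, and 8 of the 11 markers were highest in it. It held *Nanog* at 7.37 CPM, *Zfp42* at 6.84, *Sall4* at 3.62 and *Pou5f1* at 2.28, the pluripotency factors, against highest values of 0.591, 0.0724, 0 and 0.0853 CPM elsewhere, and *Uty* at 5.70 and *Eif2s3y* at 3.75 CPM against 0 elsewhere. Of 21627 protein-coding genes in the table, 4019 (18.6%) had 0 counts in the other 17 libraries, and 30 of these, *Map3k20* among them, had at least 31 counts in this one. Its neighbour *Rapgef4* had 8 counts in that library and 1 in the other 17 together. The next gene, *Cdca7*, a cell cycle gene, was read in all conditions, at 15.4 CPM in that library and a mean of 9.98 in the others. Counts per gene do not separate the long and short forms of ZAK, and the source of these reads was not tested.

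**Figure D3:**
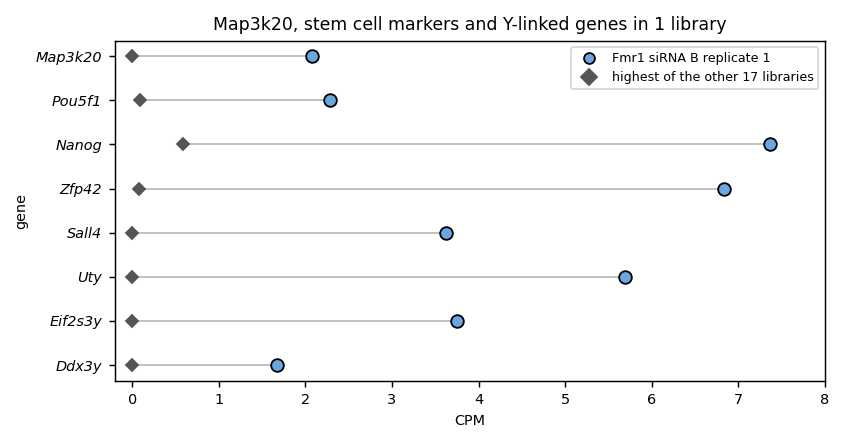
CPM (x axis) of *Map3k20*, 4 stem cell markers and 3 Y-linked genes (y axis) in Fmr1 siRNA B replicate 1 (circles) and the highest value among the other 17 libraries (diamonds). The 4 markers are among the 8 of 11 that were highest in that library. *Map3k20* is at 2.08 CPM in that library and at 0 elsewhere, and the other genes stand apart in the same way.

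*Edf1* (ENSMUSG00000015092, chr2:25447852-25464531, + strand, 5 exons) encodes the factor that binds collided ribosomes and brings the translational repressors GIGYF2 and 4EHP. Its counts were low, 86 to 425 per library, and 73.8% of its exon bases in the annotation lie opposite exons of *Mamdc4*. The strand setting of the counting is not given in the sources used here, so reads of the pair may not be separable and the *Edf1* values are uncertain. It was highest in Scramble siRNA A, at 19.2, 28.1 and 23.8 CPM, against 14.6, 15.9 and 17.8 CPM in Scramble siRNA B, a log2 difference of -0.56 (SE 0.14, adjusted p = 0.00628) with no overlap. Zfp598 siRNA A gave 15.7, 13.1 and 15.2 CPM, so *Edf1* fell against Scramble siRNA A by -0.70 (SE 0.15, adjusted p = 0.00394). Zfp598 siRNA B gave 15.3, 16.1 and 14.5 CPM and a log2 fold change of -0.07 (adjusted p = 0.767), or -0.35 (adjusted p = 0.0393) against both Scramble siRNAs.

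The group that stood out for *Edf1* was therefore Scramble siRNA A, with Fmr1 siRNA A next at 19.5, 16.7 and 23.7 CPM. The difference of the *Zfp598* effects, B minus A, was 0.63 (SE 0.20, adjusted p = 0.0348), a call lost without any 1 of 7 libraries (Scramble siRNA A replicates 2 and 3, Scramble siRNA B replicates 1 and 2, Zfp598 siRNA A replicate 2 and Zfp598 siRNA B replicates 1 and 2), with adjusted p from 0.0593 to 0.104. The fall with Zfp598 siRNA A did not pass without the 2 libraries of that group rich in the unannotated feature (adjusted p = 0.0772) or when only the groups compared entered the fit (adjusted p = 0.116). Pooled, *Edf1* was 14.98 ± 1.07 CPM in *Zfp598* KD and 19.9 ± 5.13 in Scramble KD (SD, n = 6 each), with a log2 fold change of -0.41 (SE 0.15, adjusted p = 0.161, exact permutation p = 0.0281). In *Fmr1* KD it was -0.17 (adjusted p = 0.554, exact permutation p = 0.398). *Mamdc4*, its antisense neighbour, was 17.6 ± 2.08 CPM in Scramble siRNA A and 17.9 ± 1.85 in Scramble siRNA B (SD, n = 3 each). It was 14.3 ± 2.62 CPM with Zfp598 siRNA A, a log2 fold change of -0.30 (adjusted p = 0.212), and it rose with Zfp598 siRNA B to 23.55 ± 2.13 CPM, by 0.39 (adjusted p = 0.0422; SD, n = 3 each). The difference of the *Zfp598* effects on *Mamdc4*, B minus A, passed at 0.69 (adjusted p = 0.0192), in the same direction as for *Edf1*. The part of *Mamdc4* reads in the *Edf1* values was not tested. *BC004004* (r = 0.867) and *Ank2*, a membrane adaptor (r = 0.850), were nearest to *Edf1* in pattern.

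*Rack1* (ENSMUSG00000020372, chr11:48690861-48697263, + strand, 8 exons) encodes the small-subunit protein at the interface of collided ribosomes that ZFP598 needs to act. It passed in no comparison as designed. With Zfp598 siRNA A it passed in DESeq2 (0.33, adjusted p = 0.0412) and in edgeR with no filter (0.30, adjusted p = 0.0107), without Scramble siRNA A replicate 1 (0.41, adjusted p = 0.0473) or without Zfp598 siRNA A replicate 1 (0.44, adjusted p = 0.00434). With Fmr1 siRNA A it passed with total counts (0.34, adjusted p = 0.0245) and without the 4 libraries rich in the unannotated feature (0.52, adjusted p = 0.000976). Its counts were 15250 to 37639 per library, so depth did not limit it. Levels ran from 1736 CPM in Scramble siRNA A replicate 2 to 3050 CPM in Zfp598 siRNA A replicate 2, the latter among the libraries rich in the unannotated feature. *Rack1* was 2581 ± 313 CPM in *Zfp598* KD, 2355 ± 207 in *Fmr1* KD and 2207 ± 240 in Scramble KD (SD, n = 6 each). The log2 fold change was 0.23 in *Zfp598* KD (95% interval 0.02 to 0.44, adjusted p = 0.245, exact permutation p = 0.0390) and 0.09 in *Fmr1* KD (95% interval -0.12 to 0.30, adjusted p = 0.653, exact permutation p = 0.314). These intervals allow a change of up to about 0.4 on the log2 scale. *Myg1* (r = 0.918) and the ribosomal protein gene *Rps19* (r = 0.896) were nearest in pattern.

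*Eif2ak1* (ENSMUSG00000029613, chr5:143803530-143843661, + strand) encodes HRI, the kinase that answers to heme shortage and, through DELE1, to mitochondrial stress. It rose with Zfp598 siRNA B, to 52.05, 57.14 and 49.99 CPM from 42.6, 38.6 and 41.6 in Scramble siRNA B, a log2 fold change of 0.37 (SE 0.09, adjusted p = 0.00311) with no overlap. Zfp598 siRNA A moved the other way, to 40.1, 34.5 and 34.4 CPM from 42.7, 42.0 and 43.0 in Scramble siRNA A, a log2 fold change of -0.22 that missed the threshold (SE 0.09, adjusted p = 0.118). The difference of the effects was 0.60 (SE 0.12, adjusted p = 0.00165), and it missed the threshold without the 4 libraries rich in the unannotated feature (adjusted p = 0.0619). Opposite shifts with the siRNAs to *Zfp598* left a pooled value of 0.10 (95% interval -0.15 to 0.36, adjusted p = 0.720, exact permutation p = 0.602).

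For *Fmr1* the A siRNA was the higher. Fmr1 siRNA A gave 48.5, 52.7 and 49.9 CPM, all above Scramble siRNA A, a rise of 0.24 (SE 0.09, adjusted p = 0.0492) that lay at the threshold and was lost without any 1 of 16 of the 18 libraries (adjusted p from 0.0508 to 0.167 over these), all but Zfp598 siRNA A replicates 1 and 3. Fmr1 siRNA B gave 42.9, 40.22 and 39.05 CPM and -0.01 (adjusted p = 0.960). Between these siRNAs B against A gave -0.31 (adjusted p = 0.0128), a call lost without Fmr1 siRNA A replicate 2 (adjusted p = 0.0599) or Fmr1 siRNA B replicate 3 (adjusted p = 0.0569), with total counts (adjusted p = 0.144) and with no filter (adjusted p = 0.0782). Pooled *Fmr1* KD gave 0.12 (SE 0.12, adjusted p = 0.610, exact permutation p = 0.160). *Eif2ak1* shares 25.65% of its exon bases with *Aimp2* on the opposite strand, and *Aimp2* was 20.85 ± 1.13 CPM in Scramble siRNA B and 20.8 ± 1.53 in Zfp598 siRNA B (SD, n = 3 each). The genes nearest in pattern were *Mettl2* (r = 0.927) and *Prdx3*, a mitochondrial peroxidase (r = 0.924).

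*Eif2ak3* (ENSMUSG00000031668, chr6:70821461-70882235, + strand, 17 exons) encodes PERK, the eIF2 kinase of the endoplasmic reticulum. It fell with Fmr1 siRNA B, to 41.7, 50.53 and 49.97 CPM from 65.5, 62.0 and 58.2 in Scramble siRNA B, a log2 fold change of -0.39 (SE 0.11, adjusted p = 0.0163) with no overlap. The lowest of these libraries was replicate 1, the one with the Y-linked reads. Without it the log2 fold change was -0.30 (adjusted p = 0.099), and without Scramble siRNA B replicate 1 the call was lost as well (adjusted p = 0.0726). Fmr1 siRNA A gave 54.3, 55.7 and 60.4 CPM against 76.8, 59.8 and 68.8 in Scramble siRNA A, a log2 fold change of -0.27 (adjusted p = 0.0917).

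The pooled *Fmr1* KD level of *Eif2ak3* was 52.1 ± 6.35 CPM against 65.2 ± 6.87 in Scramble KD (SD, n = 6 each), a log2 fold change of -0.32 (SE 0.11, adjusted p = 0.0831), with 5 of 6 libraries below every Scramble library and an exact permutation p = 0.00649 for this gene alone. It passed in DESeq2 (adjusted p = 0.0425) and in edgeR with the siRNA letter as a block (adjusted p = 0.0232), without Zfp598 siRNA A replicate 3 (adjusted p = 0.0469) and without the 2 Zfp598 siRNA A libraries rich in the unannotated feature (adjusted p = 0.0290). In *Zfp598* KD *Eif2ak3* was 74.4 ± 11.2 CPM (SD, n = 6), for a log2 fold change of 0.19 (adjusted p = 0.389, exact permutation p = 0.121). *Vhl*, the von Hippel-Lindau ubiquitin ligase subunit, and *Agpat5*, a lipid acyltransferase, were nearest to it (r = 0.970 and 0.965). The remaining eIF2 kinase, PKR (*Eif2ak2*), had 42.8 ± 7.36 CPM in *Fmr1* KD, 35.5 ± 6.36 in *Zfp598* KD and 39.1 ± 4.94 in Scramble KD (SD, n = 6 each), and passed in neither pooled comparison (adjusted p = 0.629 and 0.646). Of the 4 eIF2 kinases, 0 passed in the pooled comparisons as designed.

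The genes around the members were counted in 6 lists. Of 22 genes of the collision response, 2 passed in *Fmr1* KD (all genes 6.05%). In *Zfp598* KD 3 passed (all genes 1.80%), of which *Zfp598* itself, the siRNA target, is 1. *Impact*, which competes with GCN2 for GCN1, rose in *Fmr1* KD by 0.58 (SE 0.12, adjusted p = 0.00604). Its levels were 345, 375 and 319 CPM with Fmr1 siRNA A and 222.3, 230.5 and 227.8 CPM with Fmr1 siRNA B, and all 6 libraries were above the Scramble range of 187 to 201 CPM. *Zc3h15*, the partner of the ribosome-rescue GTPase DRG1, fell by -0.38 (adjusted p = 0.00883). In *Zfp598* KD *Usp21*, a deubiquitinase that acts on the small subunit, rose by 0.43 (adjusted p = 0.0246), and *Rnf10*, a ligase that ubiquitinates it, rose by 0.33 (adjusted p = 0.0467). Without Fmr1 siRNA B replicate 1, 1 gene of the list rose in *Zfp598* KD.

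With Fmr1 siRNA A 6 genes of this list rose and 2 fell, and with Fmr1 siRNA B 2 rose and 3 fell, or 1 and 2 without Fmr1 siRNA B replicate 1. *Ascc2*, a ubiquitin-binding subunit of the complex that splits collided ribosomes, fell with Fmr1 siRNA B by -0.78 (adjusted p = 1.985e-05) and with Zfp598 siRNA B by -0.66 (adjusted p = 9.78e-05). With Zfp598 siRNA A 2 rose and 3 fell, and with Zfp598 siRNA B 4 rose and 4 fell. The shares of all genes called were 22.0%, 21.4%, 11.0% and 25.2% with Fmr1 siRNA A, Fmr1 siRNA B, Zfp598 siRNA A and Zfp598 siRNA B. The list's median log2 fold change lay between -0.12 and 0.11 in these 4 comparisons, beside 0.00 to 0.01 for all genes.

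Of 10 genes of ribosome rescue and nascent chain control, 2 fell in *Fmr1* KD (all genes 6.05%). In *Zfp598* KD 0 passed in edgeR (all genes 1.80%), with 3 at an unadjusted p under 0.05 (3355 of all 19003 genes). Without Fmr1 siRNA B replicate 1, 1 fell in *Fmr1* KD. *Tcf25*, a component of the quality control complex on the large subunit, fell in *Fmr1* KD by -0.46 (SE 0.10, adjusted p = 0.00821), and by -0.51 and -0.42 with siRNA A and siRNA B. *Hbs1l*, the GTPase partner of Pelota, fell by -0.29 (adjusted p = 0.0277). *Klhdc10*, which recognises tailed nascent chains, fell with Fmr1 siRNA B (-0.32, adjusted p = 0.00383) and rose with Zfp598 siRNA B (0.65, adjusted p = 2.15e-06).

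Of 20 genes that make up eIF2, its exchange factor eIF2B, its phosphatases and other ISR regulators, 3 fell in *Fmr1* KD (all genes 6.05%). In *Zfp598* KD 1 rose and 1 fell (all genes 1.80%). Without Fmr1 siRNA B replicate 1, 2 genes of the list fell in *Fmr1* KD and 0 passed in *Zfp598* KD. *Dnajc3*, a chaperone that inhibits PERK and PKR, fell in *Fmr1* KD by -0.76 (SE 0.12, adjusted p = 0.000994). Its levels were 34.0, 36.5 and 31.5 CPM with Fmr1 siRNA A and 30.9, 30.0 and 27.2 CPM with Fmr1 siRNA B, and all 6 libraries were below the lowest Scramble library, at 47.6 CPM. *Ppp1r15b*, the constitutive eIF2 phosphatase subunit, fell by -0.36 (adjusted p = 0.00723), and *Eif2s2*, the beta subunit of eIF2, fell in both KDs, by -0.36 (adjusted p = 0.0489) and -0.43 (adjusted p = 0.0414). *Ppp1cb*, a phosphatase catalytic subunit, rose in *Zfp598* KD (0.33, adjusted p = 0.0465).

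The inducible phosphatase subunit *Ppp1r15a* (GADD34) went in opposite directions with the *Fmr1* siRNAs. It rose from 49.0 to 74.0 CPM with siRNA A (0.59, adjusted p = 0.0170) and fell from 63.7 to 20.9 CPM with siRNA B (-1.61, adjusted p = 2.09e-06), and the difference of the effects was -2.21 (SE 0.25, adjusted p = 2.66e-06). With Zfp598 siRNA B *Dele1*, which relays mitochondrial stress to HRI, fell by -0.80 (adjusted p = 7.64e-07). The list's calls with Fmr1 siRNA B were 0 higher and 7 lower (all genes 21.4%), and with Zfp598 siRNA B 1 higher and 5 lower (all genes 25.2%). Fmr1 siRNA A gave 4 higher and 4 lower (all genes 22.0%), and Zfp598 siRNA A gave 2 higher and 0 lower (all genes 11.0%). The shared control of the B siRNAs, Scramble siRNA B, itself had 5 higher and 1 lower than Scramble siRNA A (all genes 21.1%).

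Of 14 tested ISR output genes, the targets of ATF4 and its partners, 3 fell and 1 rose in *Fmr1* KD (all genes 6.05%). In *Zfp598* KD 1 fell (all genes 1.80%). With single siRNAs, 1 rose and 10 fell with Fmr1 siRNA B, and 3 rose and 7 fell with Zfp598 siRNA B, with medians of -0.55 and -0.43 beside 0.01 and 0.00 for all genes. With Fmr1 siRNA A 3 rose and 4 fell, and with Zfp598 siRNA A 0 rose and 5 fell, with medians of -0.05 and -0.11. These 4 comparisons called 21.4%, 25.2%, 22.0% and 11.0% of all genes, in the order given. Without the 2 Zfp598 siRNA A libraries rich in the unannotated feature, the median with that siRNA was -0.51 with 7 fallen, the median difference of the *Zfp598* effects, B minus A, turned from -0.14 to 0.35, and 4 fell in pooled *Zfp598* KD. Without Fmr1 siRNA B replicate 1, 0 rose and 9 fell with that siRNA. *Vldlr* had too few counts to be tested. Earlier results of these data were known when the lists were chosen, so the direction of this one is not independent evidence.

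*Ddit3* (CHOP), the stress transcription factor whose promoter is shown above, fell in both KDs, by -0.90 in *Fmr1* KD (SE 0.21, adjusted p = 0.0156) and by -0.83 in *Zfp598* KD (SE 0.22, adjusted p = 0.0483). Scramble siRNA B gave 117.8, 128.4 and 180.3 CPM and Fmr1 siRNA B gave 39.1, 39.8 and 43.65 CPM, a log2 fold change of -1.80 (adjusted p = 3.55e-09). Fmr1 siRNA A gave 94.5, 93.1 and 97.7 CPM against 107.6, 108.9 and 117.9 in Scramble siRNA A. *Ddit3* was lower with siRNA B than with siRNA A of *Fmr1* by -1.22 (adjusted p = 4.16e-07). It also fell with Zfp598 siRNA A by -0.56 (adjusted p = 0.00518), to a mean of 75.9 CPM with no overlap, where *Gtpbp2* did not pass. *Trib3*, a pseudokinase target of ATF4 and CHOP, fell in *Fmr1* KD by -1.09 (SE 0.19, adjusted p = 0.00151), to 101.9 to 107.6 CPM with siRNA B and 163.2 to 183.0 CPM with siRNA A from 215.8 to 383.6 CPM in Scramble KD. With Fmr1 siRNA A, which did not move *Gtpbp2* past the threshold, *Trib3* fell by -0.59 (adjusted p = 0.0102).

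**Figure D4:**
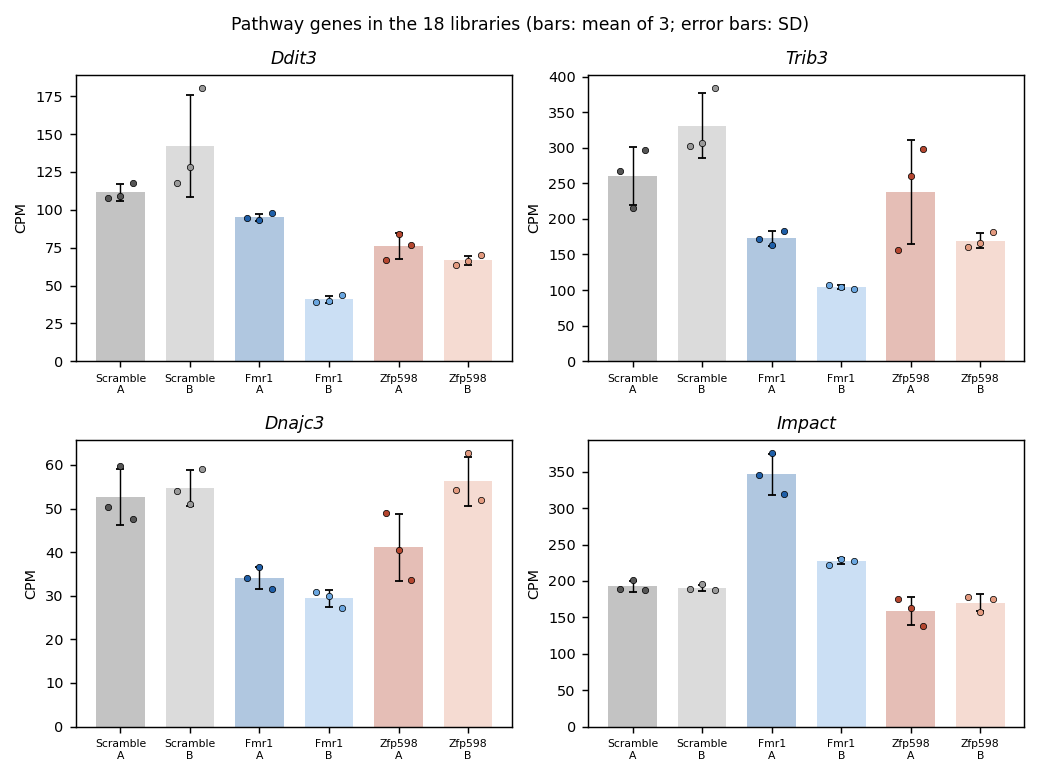
CPM (y axis, from 0, a separate scale per gene) of 4 pathway genes in the 6 siRNA groups (x axis), with points for the 3 libraries, bars for their mean and error bars for the SD. *Ddit3* and *Trib3* are lowest with Fmr1 siRNA B, at 39.1 to 43.65 and 101.9 to 107.6 CPM, and *Impact* is highest with Fmr1 siRNA A, at 319 to 375 CPM.

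Other ISR output genes moved in both directions. *Slc7a11*, the cystine transporter subunit, rose in *Fmr1* KD by 1.705 (SE 0.37, adjusted p = 0.00846), from 38.9 to 127 CPM, mostly with siRNA A (2.345, adjusted p = 1.23e-10). *Atf3* rose with Fmr1 siRNA A (1.015, adjusted p = 5.88e-07), and fell with Fmr1 siRNA B (-1.235, adjusted p = 1.84e-07), Zfp598 siRNA A (-1.435, adjusted p = 1.52e-07) and Zfp598 siRNA B (-0.78, adjusted p = 3.63e-05). *Cebpg*, a partner of ATF4, fell with both *Fmr1* siRNAs (-0.71 pooled, adjusted p = 7.56e-05). *Psat1*, an enzyme of serine synthesis, fell with Zfp598 siRNA B (-0.54, adjusted p = 4.07e-05).

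**Figure D5:**
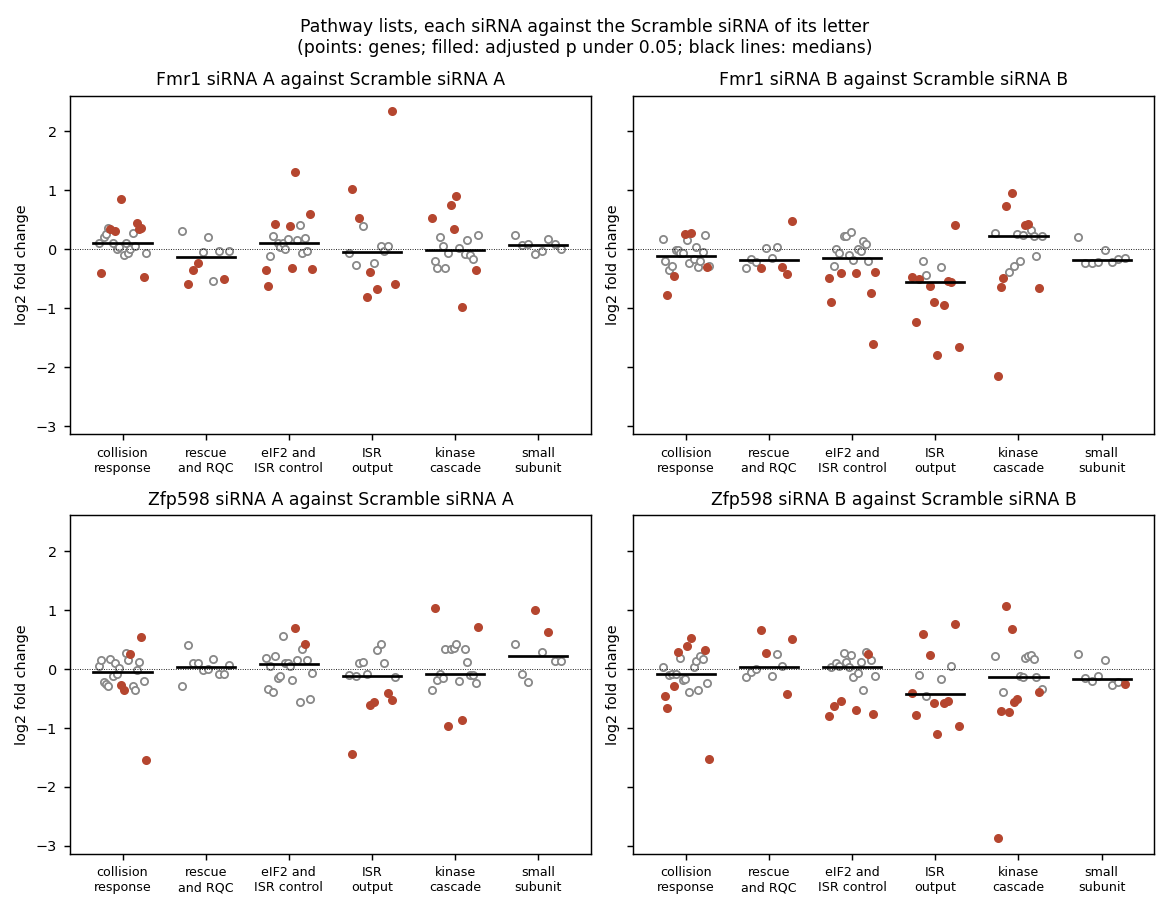
Log2 fold change (y axis) of the genes of 6 pathway lists (x axis) with each KD siRNA against the Scramble siRNA of its letter, with filled points for an adjusted p under 0.05 and black lines for list medians. The ISR output list sits lowest with Fmr1 siRNA B, at a median of -0.55, and near 0 with Fmr1 siRNA A, at -0.05.

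Although *Map3k20* itself was at 0, most of the kinases below it were read: 18 of 20 genes of the ZAK cascade and its immediate early targets were tested, and *Map2k6* and *Mapk13* were too low, with 10 and 30 counts over all libraries. In the pooled comparisons 1 gene fell in *Fmr1* KD (all genes 6.05%), *Mapk9* (JNK2), by -0.51 (SE 0.10, adjusted p = 0.00345). In *Zfp598* KD 0 of 18 passed in edgeR (all genes 1.80%), with 6 at an unadjusted p under 0.05 (3355 of all 19003 genes). With Fmr1 siRNA B 4 rose and 4 fell (all genes 21.4%), and with Zfp598 siRNA B 2 rose and 6 fell (all genes 25.2%). Fmr1 siRNA A gave 4 higher and 2 lower (all genes 22.0%), and Zfp598 siRNA A gave 2 higher and 2 lower (all genes 11.0%). Between the controls, 3 genes of the list were higher and 6 lower with Scramble siRNA B than with Scramble siRNA A (all genes 21.1%). *Egr1*, an immediate early gene, fell with both B siRNAs, by -2.14 (adjusted p = 1.55e-06) and -2.87 (adjusted p = 8.62e-08), from 117 CPM in Scramble siRNA B. That control was itself higher than Scramble siRNA A by 1.92 (adjusted p = 5.60e-06). *Jun* was higher with both B siRNAs than with Scramble siRNA B, by 0.96 (adjusted p = 3.32e-06) and 0.68 (adjusted p = 0.000147), and that control differed from Scramble siRNA A by -1.29 (adjusted p = 1.14e-07).

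Of the 8 small-subunit proteins that neighbour RACK1 or carry the ubiquitin of collided ribosomes, 0 passed in either pooled comparison in edgeR. All genes passed at 6.05% for *Fmr1* and 1.80% for *Zfp598*. An unadjusted p under 0.05 was found for 0 of the 8 for *Fmr1* and 2 for *Zfp598*, beside 4005 and 3355 of all 19003 genes. *Rps2* and *Rps3*, substrates of RNF10, rose with Zfp598 siRNA A by 1.00 (adjusted p = 0.00535) and 0.62 (adjusted p = 0.0180), with overlap of the libraries. In that group 2 of 3 libraries were rich in the unannotated feature. The list's median log2 fold change with Zfp598 siRNA A was 0.21. It was 0.07 without those 2 libraries, which leaves a single library of that siRNA. The part of that feature in these values was not tested.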

How the data were processed

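RNA-seq was done on N2A cells after KD with 2 independent siRNAs per condition, 3 libraries each. The deposited values are raw counts per gene, which the authors made with TrimGalore, STAR and featureCounts on GRCm39. The annotation release, the strand setting and the handling of multi-mapped reads are not given in the sources used here. Members were matched to gene identifiers and coordinates with GENCODE M39, of the same build. The members, gene lists and tests were chosen with earlier results of these data known.

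Genes were filtered with filterByExpr over the 6 groups (minimum count 10, minimum total 15), leaving 19003, scaled by TMM and tested with edgeR 4.0.16 (R 4.3.3, limma 3.58.1) quasi-likelihood tests, with Benjamini-Hochberg adjustment over all tested genes. A model of 3 conditions gave the pooled comparisons, and a model of 6 siRNA groups gave the others. DESeq2 1.42.0 was an alternative. Both models were tested on simulated counts for 19003 genes with 200 changed. The model of 3 conditions recovered 164 with 5 false calls, and the model of 6 groups recovered 141 with 8 false calls. How either model behaves with differences between siRNAs of the same target, or with changes under 2-fold, was not tested. Single members were also compared by a two-sided exact permutation test of mean log2(CPM + 0.5), 6 against 6 libraries. With 3 against 3 no such test can pass. Total counts of 7674724 to 15414590 per library set the precision, and limits at 0 counts cover counting error only.

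Named genes were the 9 members, both siRNA targets, *Eif2ak2*, the 2 genes most correlated with each member and, per list and comparison, up to 4 passing genes of lowest p. *Ppp1r15a* with Fmr1 siRNA A, *Jun* with Zfp598 siRNA B, the genes that overlap or neighbour a member and the stem cell and Y-linked genes shown for 1 library were chosen after their values were seen. Alternatives were other scalings, no filter, a replicate or siRNA letter block, both Scramble siRNAs as control, only the groups compared, a 2-fold threshold and leaving out each library. Leaving out the 2 or 4 libraries rich in the unannotated feature was added after seeing the data.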

Additional observations from a re-analysis of the deposited data

Results flagged for a closer look

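In 27 groups of 6 libraries (9 members in 3 conditions), a library was set apart when its gap to the nearest other, divided by the range of the group, exceeded Dixon's 95% critical value for 6 values, which chance does in about 1 group in 20. *Map3k20* in *Fmr1* KD had a ratio of 1.0, with 31 counts in Fmr1 siRNA B replicate 1 and 0 in the other 5 libraries. *Rack1* in Scramble KD had a ratio of 0.7396, with Scramble siRNA A replicate 2 lowest at 1736 CPM. *Eif2ak1* in Scramble KD had a ratio of 0.6829, with Scramble siRNA B replicate 2 lowest at 38.6 CPM.

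In 4 cases the KD effect, taken against the Scramble siRNA of the same letter, differed between siRNA B and siRNA A (log2 scale, B minus A). This test of the difference also holds the difference between the Scramble siRNAs. *Gtpbp2* differed by -0.82 for *Fmr1* (adjusted p = 2.44e-05) and by -0.72 for *Zfp598* (adjusted p = 0.000128), lower with B in 3 of 3 libraries of each target. *Eif2ak1* differed by 0.60 for *Zfp598* (adjusted p = 0.00165) and *Edf1* by 0.63 for *Zfp598* (adjusted p = 0.0348). Compared directly, siRNA B against siRNA A gave -0.59 and -0.49 for *Gtpbp2* with *Fmr1* and *Zfp598*, and 0.54 for *Eif2ak1* with *Zfp598*. For *Edf1* the *Zfp598* siRNAs gave 0.06 (adjusted p = 0.782), while Scramble siRNA B against Scramble siRNA A gave -0.56 (adjusted p = 0.00628).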

How the results depend on the processing

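Over 64 member fold changes and 1776 alternative values, 1621 kept their direction and side of the threshold, 59 lost a call, 75 gained one and 21 changed sign, of which 0 were values that had passed. Counts of members passed are given in the order of the report. With total counts and no scaling factor, 0 passed in pooled *Fmr1* KD, 1 in pooled *Zfp598* KD, 2 with Zfp598 siRNA A and 1 between the *Fmr1* siRNAs. Without the most counted feature in the totals 0 passed with Fmr1 siRNA A, and with no filter 0 passed with Fmr1 siRNA A and 2 with Zfp598 siRNA A. A siRNA letter block gave 3 and 1 in the pooled comparisons. Both Scramble siRNAs as control gave 4 with Fmr1 siRNA A and 3 with Zfp598 siRNA A. Only the groups compared gave 0 with Zfp598 siRNA A, 4 between the *Fmr1* siRNAs and 2 for the difference of the *Fmr1* effects. DESeq2 gave 3 and 1 in the pooled comparisons, 2 with Fmr1 siRNA A and 3 with Zfp598 siRNA A. Without the 2 Zfp598 siRNA A libraries rich in the unannotated feature the counts were 2 and 1 pooled, 3 with Fmr1 siRNA A, 0 with Zfp598 siRNA A, 4 between the Scramble siRNAs, 4 between the *Fmr1* siRNAs and 2 for the difference of the *Fmr1* effects. Without all 4 such libraries they were 2 and 2 pooled, 3 with Fmr1 siRNA A, 4 between the Scramble siRNAs, 4 between the *Fmr1* siRNAs and 3 for that difference. Over these settings the counts ran from 3 to 4 with Fmr1 siRNA B and from 3 to 5 with Zfp598 siRNA B. A 2-fold threshold gave 0 in each comparison. The cause of these shifts was not tested.

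Leaving out 1 library at a time, the counts ranged from 0 to 2 in pooled *Fmr1* KD, 0 to 1 in pooled *Zfp598* KD, 0 to 3 with Fmr1 siRNA A, 2 to 3 with Fmr1 siRNA B, 1 to 6 with Zfp598 siRNA A, 3 to 4 with Zfp598 siRNA B, 2 to 3 between the Scramble, 1 to 4 between the *Fmr1* and 3 to 4 between the *Zfp598* siRNAs, 1 to 1 for the difference of the *Fmr1* effects, 2 to 5 for that of the *Zfp598* effects and 6 to 8 over the 6 groups. The highest counts of 6, 5 and 8 came without Zfp598 siRNA A replicate 1.

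Sign changes were among values that had not passed. With total counts *Gcn1* and *Eif2ak4* with Zfp598 siRNA A were -0.046 and -0.086, and *Edf1*, *Rack1* and *Eif2ak1* with Fmr1 siRNA B were 0.0040, 0.016 and 0.067. Against both Scramble siRNAs *Edf1* with Fmr1 siRNA A was 0.027, *Rack1* with Fmr1 siRNA B 0.0018 and *Gtpbp1* with Zfp598 siRNA B 0.12. Without 2 libraries *Gcn1* with Zfp598 siRNA A was -0.36, and without 4 it was -0.01956, *Gtpbp1* in *Zfp598* KD -0.01955 and *Gtpbp1* with Fmr1 siRNA A 0.0054. Leaving out 1 library, *Gcn1* ranged from -0.0053 to 0.25 with Fmr1 siRNA A and from -0.059 to 0.36 with Zfp598 siRNA A, *Edf1* from -0.14 to 0.0086 with Fmr1 siRNA B and from -0.14 to 0.0067 with Zfp598 siRNA B, *Gtpbp1* from -0.16 to 0.0026 with Zfp598 siRNA B, and *Eif2ak1* from -0.049 to 0.021 with Fmr1 siRNA B. *Gtpbp2* between the *Zfp598* siRNAs lost its call with total counts (-0.23, adjusted p = 0.0660).

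Replicate numbers did not pair the libraries: same-numbered libraries of different groups had correlations of -0.595 to 0.528 (median 0.0867), with 22 of 45 over 0.1. With a replicate block 0 members passed in pooled *Fmr1* KD (*Gtpbp2* -0.50, adjusted p = 0.0570) and 0 with Fmr1 siRNA A. Of the 16 genes nearest to a member by Pearson's r, 5 were also nearest by Spearman's rho.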
